A study of Homo sapiens with 12 samples.

Results

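The spindle assembly checkpoint was examined through the mRNA of 10 genes, BUB1, BUB1B, BUB3, MAD1L1, MAD2L1, TTK, TRIP13, ZW10, KNTC1 and ZWILCH, which were chosen by symbol from the 14828 genes of the expression table. All 10 were present, and all 10 passed the filter on low values that left 14624 genes for testing. The cells were 22Rv1, a human prostate carcinoma line, transduced with lentivirus in which doxycycline switches on an shRNA, either a nontargeting control (shNT) or 1 of 2 that target CENPA (shCENPA1 and shCENPA2). CENPA is the histone H3 variant that marks the centromere. Cells of all 3 groups, controls included, received doxycycline, which by the study's methods was at 2 µg/ml for 72 h. Each shRNA is represented by 2 libraries, and the transduced cells were kept by drug selection of the culture.

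The checkpoint delays anaphase until every chromosome is held by spindle microtubules. At an unattached kinetochore the kinase TTK (also called MPS1) starts a cascade in which BUB1 and BUB3 dock and recruit MAD1L1 bound to MAD2L1, while a complex of ZW10, KNTC1 (Rod) and ZWILCH forms the outer fibrous corona that holds more of the MAD1L1 pool. MAD2L1 changes its fold there and joins BUB1B (BUBR1) and BUB3 on CDC20, which blocks the anaphase-promoting complex, a ubiquitin ligase, and so keeps securin and cyclin B intact. TRIP13 is the ATPase that opens MAD2L1 again and lets it be reused. Several of these mRNAs are known to be made mainly in G2 and mitosis, through promoter elements bound by cell cycle regulators.

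Of the 10 genes, 7 have an entry in the RefSeq promoter table used here (GRCh38.p14, 250 bases before to 50 after the transcript start). The 4 promoters below are shown because they pair genes whose mRNA fell with CENPA knockdown (BUB1, BUB1B and MAD2L1) with one whose mRNA did not pass the test in either comparison (ZW10). They are written 5′ to 3′ along the gene, and capitals mark the matched motifs on either strand.
BUB1 promoter, chr2:110678014-110678313, minus strand: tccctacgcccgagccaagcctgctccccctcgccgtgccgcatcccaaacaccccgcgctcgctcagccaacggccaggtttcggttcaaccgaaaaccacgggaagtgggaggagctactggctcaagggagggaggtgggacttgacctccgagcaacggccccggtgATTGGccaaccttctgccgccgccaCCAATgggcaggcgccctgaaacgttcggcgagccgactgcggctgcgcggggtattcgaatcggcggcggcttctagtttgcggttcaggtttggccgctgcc
BUB1B promoter, chr15:40160819-40161118, plus strand: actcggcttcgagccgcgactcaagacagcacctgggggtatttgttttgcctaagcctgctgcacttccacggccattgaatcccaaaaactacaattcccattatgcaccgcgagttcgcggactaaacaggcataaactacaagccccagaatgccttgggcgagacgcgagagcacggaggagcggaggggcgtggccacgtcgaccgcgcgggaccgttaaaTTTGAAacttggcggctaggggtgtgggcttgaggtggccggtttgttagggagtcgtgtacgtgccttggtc
MAD2L1 promoter, chr4:120066799-120067098, minus strand: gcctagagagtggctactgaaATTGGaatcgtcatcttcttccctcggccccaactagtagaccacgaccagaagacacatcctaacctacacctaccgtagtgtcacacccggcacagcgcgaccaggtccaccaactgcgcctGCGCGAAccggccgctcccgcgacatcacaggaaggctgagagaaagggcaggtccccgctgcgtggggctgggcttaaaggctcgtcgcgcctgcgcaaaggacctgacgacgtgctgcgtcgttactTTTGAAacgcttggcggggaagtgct
ZW10 promoter, chr11:113773643-113773942, minus strand: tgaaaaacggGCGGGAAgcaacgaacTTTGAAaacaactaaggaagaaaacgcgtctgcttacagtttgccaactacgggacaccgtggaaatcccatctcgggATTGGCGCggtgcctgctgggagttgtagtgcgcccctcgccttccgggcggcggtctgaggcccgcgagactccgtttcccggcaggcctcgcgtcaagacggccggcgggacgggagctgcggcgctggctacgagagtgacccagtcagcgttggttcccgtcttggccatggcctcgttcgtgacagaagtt

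The motifs searched on both strands were the cell cycle genes homology region in the form TTTGAA or the form TTTAAA, the CCAAT box and the TATAAA box. E2F-type sites were searched as TTCCCGC, then as TTGGCGC, then as TTCGCGC and then as TTGCCGC. Positions count from 1 at the transcript start and from -1 at the base before it. BUB1B carried TTTGAA from -23 to -18, and MAD2L1 carried it from 25 to 30. ZW10 carried the same letters farther out, from -224 to -219.

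The homology region was thus found in 3 of the 7 promoters, and in 24.0% of all 35116 promoters of the table. Within 50 bases on either side of the start it was found in 2 of 7 (BUB1B and MAD2L1), against 7.62% of all promoters. E2F-type letters were found in MAD2L1 (-105 to -99, minus strand) and at a pair of places in ZW10 (-240 to -234 on the minus strand and -145 to -139 on the plus strand), 2 of 7 promoters against 13.0% of all. The second place in ZW10 overlaps a CCAAT match on the minus strand at -146 to -142. Within 50 bases on either side of the start, E2F-type letters were in 0 of 7, against 4.76% of all promoters.

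CCAAT was present in 4 of 7 promoters against 34.6% of all, at -79 to -75 and -54 to -50 in BUB1, at -229 to -225 in MAD2L1, in ZW10 as given above and at 3 to 7 in ZWILCH. Within 50 bases of the start, CCAAT was in 1 of 7 (ZWILCH), against 10.7% of all. TATAAA was in 0 of 7 in the wide and the narrow window, against 11.5% and 4.52% of all. The promoters of TRIP13 and MAD1L1 held none of these letters. MAD2L1 and ZW10 thus each held the homology region, E2F-type letters and CCAAT, BUB1B held the homology region alone, and BUB1 and ZWILCH held CCAAT alone.

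Expression was given as log2 RPKM, where RPKM is a gene's reads divided by its length and by the depth of its library, so levels can be compared between genes. The libraries held 79172294 to 133074655 reads on genes. Each library had been run in 2 lanes, which differed by little more than sampling noise (chi-square per gene of 1.24 to 1.31, where noise alone gives 1), whereas the libraries of one shRNA differed far more (26.5 with shNT, 80.1 and 54.9 with the CENPA shRNAs). The lanes were averaged, so n = 2 libraries per shRNA throughout. No source states that the libraries came from separate cultures, so p-values measure the spread between these libraries, which may be technical. An exact permutation test of 2 libraries against 2 cannot go below 0.33, and the adjusted p-values below come from limma fitted over all genes tested (Benjamini-Hochberg), with an adjusted p under 0.05 taken as passing.

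The targeted gene followed the labels. CENPA was at log2 RPKM of 2.46 and 2.18 with shNT, 0.50 and 0.58 with shCENPA1, and -0.47 and -0.41 with shCENPA2. The mean difference corresponds to 70.9% less CENPA mRNA with shCENPA1 and 85.3% less with shCENPA2 (limma, adjusted p = 0.000287 and 1.13e-05). The luminal prostate genes HOXB13 (7.79 to 8.39) and FOLH1 (7.23 to 7.80) and the luminal keratin KRT18 (6.49 to 6.97) were high in every library, while KLK3 (prostate-specific antigen) was low (-2.17 to -0.48). Of the 9 luminal markers reported here, from a list of 11, 1 was lower and 0 were higher with shCENPA1, and 4 were lower and 2 higher with shCENPA2. These counts do not stand for the whole list. Of 13 fibroblast, leukocyte and endothelial markers, 9 were not in the table. The log2 of the summed RPKM of the other 4 was 2.09 to 2.16 with shNT, 2.08 with shCENPA1 and 2.76 with shCENPA2, where DCN was higher with both shRNAs (1.93 and 1.48 on the log2 scale) and LUM with shCENPA2 (0.74). The part of these shifts in the checkpoint results was not tested.

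In control cells the 10 mRNAs spanned a 5.03-fold range. BUB3 was the most abundant (geometric mean of 19.6 RPKM), followed by BUB1B (16.3), ZW10 (12.6) and ZWILCH (12.0). MAD2L1 (11.2), TTK (10.5), TRIP13 (10.3) and BUB1 (9.68) came next, and the libraries of each of these overlapped with those of its neighbour in this order. KNTC1 (7.68) and MAD1L1 (3.90) were lowest, each apart from the gene above it.

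CENPA knockdown rearranged this order. With shCENPA2, BUB3 (15.5 RPKM) and ZW10 (12.6) stood above the rest, ZWILCH was at 6.29 and BUB1B at 5.52. MAD1L1, the lowest in the control, came next at 4.49 RPKM. The remaining TTK (3.51), MAD2L1 (3.27), KNTC1 (3.23), BUB1 (3.20) and TRIP13 (3.14) lay together, with each overlapping its neighbour. With shCENPA1 the same pair was on top (15.8 and 12.3 RPKM), MAD1L1 was at 4.39 and KNTC1 lowest at 3.49.

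**Figure D1:**
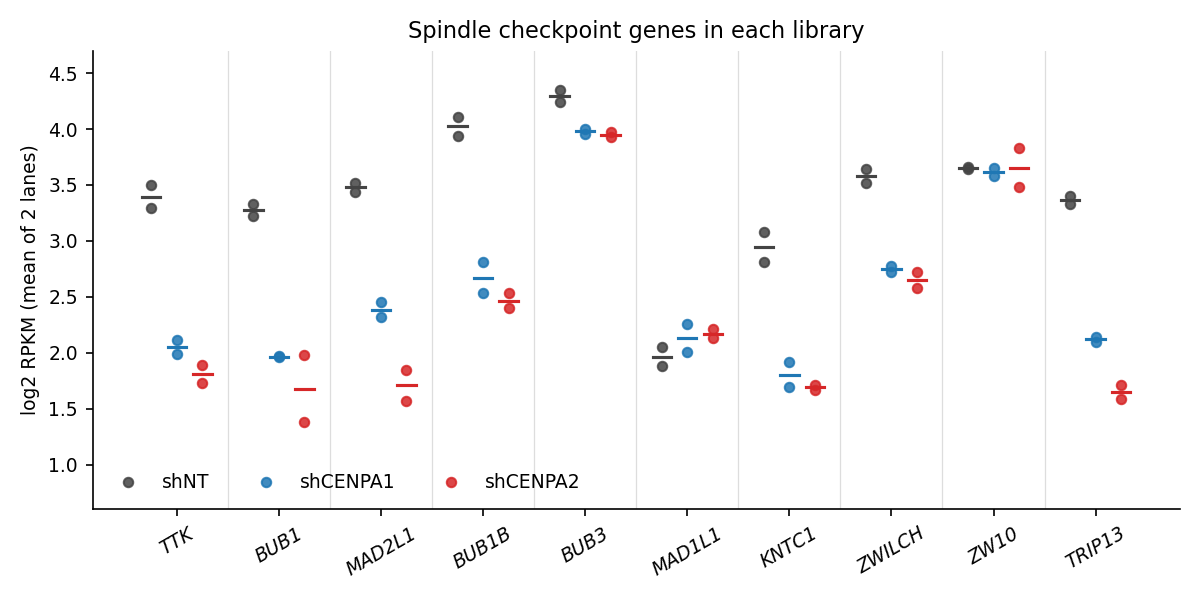
Log2 RPKM of the 10 checkpoint genes (vertical axis), with 1 point per library, the lanes averaged, and a horizontal bar at the mean of the 2 libraries of each shRNA (shNT grey, shCENPA1 blue, shCENPA2 red). For 8 genes all knockdown libraries lie below both shNT libraries, while for MAD1L1 and ZW10 they do not.

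The study compared each CENPA shRNA with shNT to find which genes respond to loss of CENPA. With shCENPA1, 7 of the 10 checkpoint mRNAs were lower at an adjusted p under 0.05, where 4.45% of all genes tested were. The estimated fall was over 2-fold for 6 of them (1.83% of all genes tested), and 0 of 10 were higher (2.69% of all). Among these, the 95% interval of the log2 fold change reached above -1 for BUB1 (-0.91), MAD2L1 (-0.81), KNTC1 (-0.83) and TRIP13 (-0.99). It did not for TTK and BUB1B. For 8 of 10 both knockdown libraries lay under both shNT libraries, as they did for 27.1% of all genes. The median log2 fold change was -1.12 over the 10 genes and 0.00 over all genes tested.

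With shCENPA2, 8 of 10 were lower (10.5% of all genes tested), 6 of them by over 2-fold (4.45% of all), and 0 were higher (8.05% of all). Of those 6, the 95% interval reached above -1 for KNTC1 alone (-0.94). The libraries lay apart and lower for 8 genes (31.0% of all) and apart and higher for 1, MAD1L1 (31.5% of all). The median log2 fold change was -1.41 over the 10 and 0.01 over all genes tested. The shNT libraries serve in both comparisons, which are therefore not independent. In a culture measured in bulk, fewer cells in the phase that makes an mRNA and less of it in each such cell cannot be told apart.

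**Figure D2:**
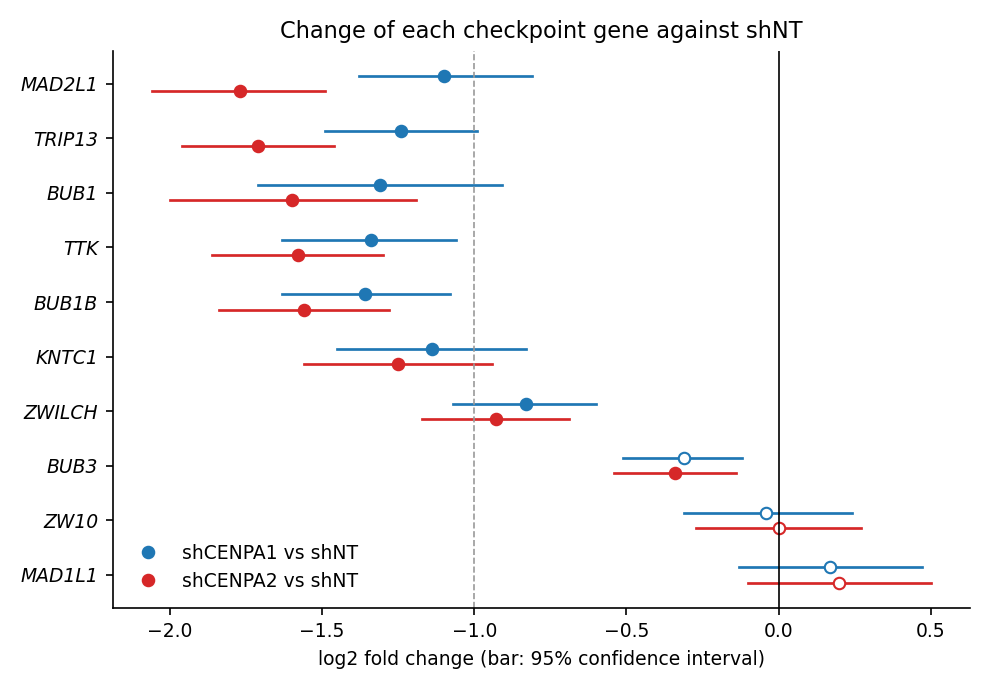
Log2 fold change of each checkpoint gene against shNT (horizontal axis) with its 95% confidence interval from limma, for shCENPA1 (blue) and shCENPA2 (red). Filled points passed an adjusted p under 0.05, open points did not, and the dashed line marks a 2-fold fall. The points of MAD2L1, TRIP13, BUB1, TTK, BUB1B and KNTC1 lie left of that line with both shRNAs, and those of MAD1L1 and ZW10 lie around 0.

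Among the kinases, TTK (chr6:80003887-80042527, plus strand, GRCh38) starts the signal by phosphorylating the KNL1 scaffold. It was at log2 RPKM of 3.29 and 3.50 with shNT, 2.11 and 1.99 with shCENPA1, and 1.89 and 1.73 with shCENPA2. All 4 knockdown libraries were therefore more than 1 log2 unit under both controls. The log2 fold change was -1.34 ± 0.13 (SE) with shCENPA1 (limma, adjusted p = 0.000304) and -1.58 ± 0.13 with shCENPA2 (adjusted p = 4.47e-05), that is 60.6% and 66.6% less mRNA.

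BUB1 (chr2:110637528-110678063, minus strand) is the kinase that docks MAD1L1 and also marks the centromere through histone H2A. Its log2 RPKM was 3.22 and 3.33 with shNT, 1.97 and 1.96 with shCENPA1, and 1.98 and 1.38 with shCENPA2. The control and the knockdown libraries did not overlap, but the shCENPA2 libraries differed from each other by more than the 2 shCENPA1 libraries did (SD of 0.43 against 0.00). BUB1 changed by -1.31 ± 0.18 with shCENPA1 (limma, adjusted p = 0.00216) and by -1.60 ± 0.18 with shCENPA2 (adjusted p = 0.00032). Without the second shCENPA1 library, the fall with shCENPA1 was of the same size (-1.31) and missed the threshold (adjusted p = 0.0544).

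BUB1B (chr15:40161023-40221123, plus strand) encodes BUBR1, the pseudokinase of the mitotic checkpoint complex that occupies CDC20 as a pseudosubstrate. It was at 3.94 and 4.11 with shNT, 2.81 and 2.53 with shCENPA1, and 2.53 and 2.40 with shCENPA2, again without overlap. The log2 fold change was -1.36 ± 0.12 with shCENPA1, the deepest fall of the 10 genes in that comparison, and -1.56 ± 0.12 with shCENPA2 (limma, adjusted p = 0.000287 and 4.47e-05). Its exons share 240 bases (5.4%) with PAK6 on the same strand in GENCODE 44, and reads from those bases cannot be assigned to one of the genes with certainty.

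BUB3 (chr10:123154402-123170467, plus strand), the propeller protein that carries both BUB1 and BUB1B to KNL1, had a smaller change than its partners. Its log2 RPKM was 4.24 and 4.35 with shNT, 4.00 and 3.96 with shCENPA1, and 3.93 and 3.97 with shCENPA2. The groups did not overlap, yet the difference was small. It was -0.31 ± 0.09 with shCENPA1 (95% interval -0.51 to -0.12), which did not pass (limma, adjusted p = 0.0665), and -0.34 ± 0.09 with shCENPA2 (-0.54 to -0.14), which passed (adjusted p = 0.0251). That call was lost without either shNT library (adjusted p = 0.121 and 0.3) and without the first shCENPA2 library (adjusted p = 0.0712).

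MAD2L1 (chr4:120055623-120066858, minus strand) is the protein that is converted at the kinetochore into the form that binds CDC20. Its log2 RPKM was 3.44 and 3.52 with shNT, 2.32 and 2.45 with shCENPA1, and 1.85 and 1.57 with shCENPA2, so that the 3 groups formed 3 separate levels. MAD2L1 changed by -1.10 ± 0.13 with shCENPA1 (limma, adjusted p = 0.000925) and by -1.77 ± 0.13 with shCENPA2 (adjusted p = 2.72e-05), the latter the deepest fall of the 10 genes. This is 53.3% and 70.8% less mRNA.

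MAD1L1 (chr7:1815793-2233243, minus strand), the coiled-coil partner that anchors MAD2L1 at kinetochores and nuclear pores, did not fall in these values. It was at 2.05 and 1.88 with shNT, 2.01 and 2.26 with shCENPA1, and 2.21 and 2.13 with shCENPA2. The shCENPA1 libraries overlapped with the control and the shCENPA2 libraries lay just above it. The difference was 0.17 with shCENPA1 (95% interval -0.13 to 0.47, limma adjusted p = 0.499) and 0.20 with shCENPA2 (-0.10 to 0.50, adjusted p = 0.334). For the reads counted as MAD1L1, these intervals exclude a fall of the size seen for MAD2L1. Of its exon bases, 3004 (43.2%) are shared with ENSG00000286192, a protein-coding gene on the same strand that is not in the table. Its level and its change are uncertain to that extent.

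TRIP13 (chr5:892884-919357, plus strand), the ATPase that remodels MAD2L1, was at 3.33 and 3.40 with shNT, 2.10 and 2.14 with shCENPA1, and 1.59 and 1.71 with shCENPA2. As for MAD2L1, the 3 groups formed 3 levels without overlap. The change was -1.24 ± 0.11 with shCENPA1 (limma, adjusted p = 0.000266) and -1.71 ± 0.11 with shCENPA2 (adjusted p = 1.73e-05). These are 57.7% and 69.5% less mRNA, with 896 to 3903 reads per library behind the values, the fewest reads of the 10 genes.

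The 3 subunits of the corona complex moved by unequal amounts. KNTC1 (chr12:122527246-122626396, plus strand), its large scaffold, was at 2.81 and 3.08 with shNT, 1.92 and 1.69 with shCENPA1, and 1.71 and 1.67 with shCENPA2. Its mRNA was 54.5% lower with shCENPA1 and 58.0% lower with shCENPA2, which is a log2 fold change of -1.14 ± 0.14 and -1.25 ± 0.14 (limma, adjusted p = 0.00118 and 0.000292).

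ZWILCH (chr15:66504959-66550130, plus strand), the subunit that binds KNTC1, was at 3.52 and 3.64 with shNT, 2.72 and 2.78 with shCENPA1, and 2.58 and 2.72 with shCENPA2. It fell less than 2-fold with both shRNAs, by 0.83 and 0.93 on the log2 scale (SE 0.11 for both, limma adjusted p = 0.00147 and 0.000343). Its exons share 158 bases (3.3%) with RPL4 and 369 (7.6%) with LCTL on the opposite strand. The library kit keeps the strand, but the strand setting of the counting was not given in the sources used here.

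ZW10 (chr11:113733187-113773735, minus strand) also serves in a vesicle tether at the endoplasmic reticulum, outside mitosis. It was at 3.64 and 3.66 with shNT, 3.65 and 3.58 with shCENPA1, and 3.48 and 3.83 with shCENPA2, with overlap in both comparisons. The difference was -0.04 with shCENPA1 (95% interval -0.31 to 0.24, limma adjusted p = 0.897) and 0.00 with shCENPA2 (-0.27 to 0.27, adjusted p = 0.996). A fall as large as that of ZWILCH or KNTC1 lies outside these intervals.

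The same values can be read as ratios of RPKM within a library, which do not depend on the factor by which each library was scaled. MAD2L1 mRNA was 2.86 times that of MAD1L1 with shNT, 1.19 times with shCENPA1 and 0.727 times with shCENPA2. On the log2 scale the ratio was 1.39 and 1.64, then 0.31 and 0.19, then -0.36 and -0.56 in the libraries of the 3 groups. The log2 ratio was under 0 in both shCENPA2 libraries. Which of the pair was the more abundant there is uncertain, since MAD1L1 shares exon bases with another gene as given above.

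In the corona complex, KNTC1 over ZW10 was 0.611 with shNT, 0.285 with shCENPA1 and 0.256 with shCENPA2, and ZWILCH over ZW10 was 0.951, 0.547 and 0.499. No library of either knockdown overlapped with the control in these ratios. KNTC1 over ZWILCH moved less, by -0.30 and -0.32 on the log2 scale.

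BUB1 over BUB3 was 0.493, 0.247 and 0.207 in the same order, and BUB1B over BUB3 was 0.829, 0.403 and 0.356. The ratio of BUB1 to BUB1B, the pair that shares BUB3, was 0.594, 0.613 and 0.580, and its libraries overlapped in both comparisons. TRIP13 over MAD2L1 moved little, by -0.14 and 0.06 on the log2 scale. Its shCENPA1 libraries (-0.22 and -0.30) both lay under the shNT libraries (-0.12 for both), while its shCENPA2 libraries overlapped with them. These ratios are descriptions without a test.

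**Figure D3:**
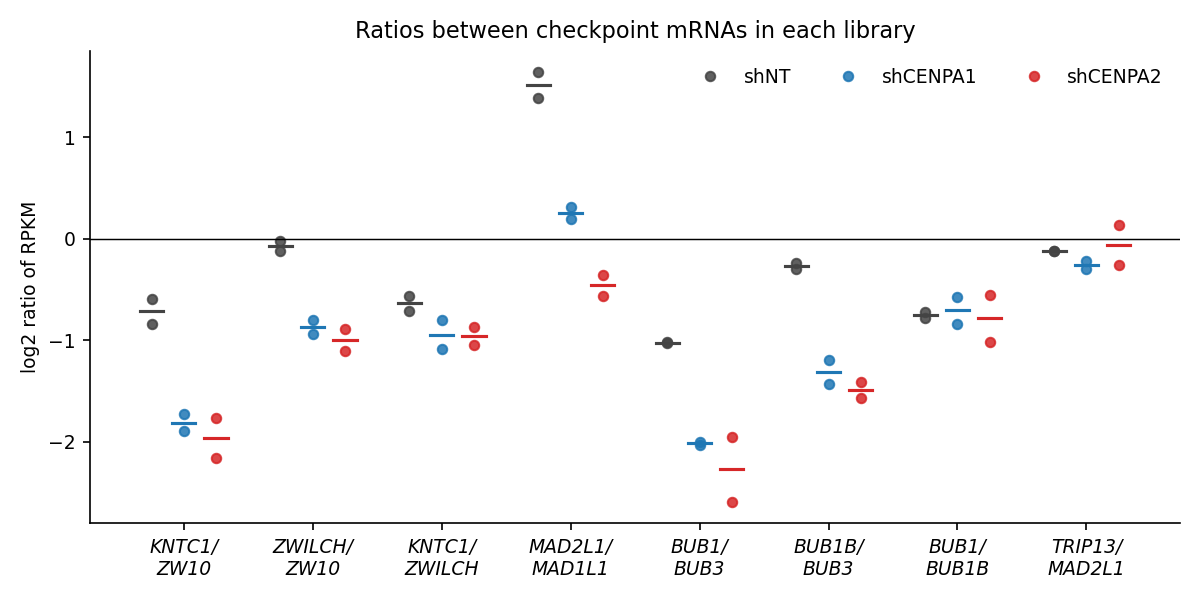
Log2 ratio of RPKM between pairs of checkpoint genes (vertical axis), with 1 point per library and a bar at the mean of the 2 libraries of shNT (grey), shCENPA1 (blue) and shCENPA2 (red). The ratio of MAD2L1 to MAD1L1 goes from a mean of 1.52 to 0.25 and -0.46, while that of BUB1 to BUB1B stays between -0.75 and -0.78 for shNT and shCENPA2 and is -0.71 for shCENPA1.

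The shRNAs were also compared with each other. The residual CENPA level was lower with shCENPA2, by a log2 difference of -0.98 (limma, adjusted p = 0.0209). Of the 10 checkpoint genes 1 passed this comparison, MAD2L1, where 1.03% of all genes tested were lower. The log2 difference was -0.68 ± 0.13 with the lower level in shCENPA2 (95% interval -0.96 to -0.39, limma adjusted p = 0.036). The lowest adjusted p of the alternative fits, 6.41e-05, took 4 runs per shRNA as replicates, though runs of one library are not separate samples. MAD2L1 did not pass with lane 8 alone (limma, adjusted p = 0.067), with library number as a block (0.0631) or without a trend in the variance (0.103). The call was lost without the first shCENPA1 library (adjusted p = 0.108), the second (0.312) or the second shCENPA2 library (0.126).

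TRIP13 had the next largest difference, -0.47 ± 0.11 (95% interval -0.72 to -0.22), and did not pass (limma, adjusted p = 0.0864). The libraries of the 2 shRNAs lay apart, lower with shCENPA2, for 4 of 10 genes (MAD2L1, TRIP13, TTK and BUB1B), and for 20.2% of all genes. For TTK (-0.52 to 0.04), BUB1B (-0.48 to 0.07) and BUB1 (-0.69 to 0.12) the 95% interval of the log2 difference included 0. The intervals were narrower for BUB3 (-0.23 to 0.17) and ZWILCH (-0.33 to 0.14). A difference between the shRNAs of over 2-fold was passed by 0 of 10 genes, against 0.554% of all genes in the lower direction.

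The partners of the checkpoint genes were counted in 7 lists with 66 genes, all in the table. The kinetochore scaffold that the checkpoint proteins dock on had 7 of 10 genes lower with each shRNA. Of all genes tested, 4.45% were lower with shCENPA1 and 10.5% with shCENPA2. KNL1, the platform for BUB1, BUB1B and BUB3, changed by -1.40 ± 0.17 and -1.66 ± 0.17 (limma, adjusted p = 0.00115 and 0.000186), close to the values of BUB1 itself. NUF2, a subunit of the microtubule-binding NDC80 complex, changed by -1.38 and -2.07, while NSL1 (-0.02 and -0.11) and PMF1 (0.08 and -0.01) of the MIS12 complex did not pass.

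The kinases and adaptors that recruit checkpoint proteins were lower in 11 of 12 cases with each shRNA, against 4.45% and 10.5% of all genes tested. AURKB, the kinase of the chromosomal passenger complex, changed by -1.24 and -1.75 (limma, adjusted p = 0.000545 and 3.13e-05). SPDL1 (Spindly), which links the corona complex to dynein, changed by -0.80 and -0.74, a size near that of ZWILCH. The exception was TPR, the nuclear pore protein that holds MAD1L1 in interphase, at -0.07 and 0.01 (adjusted p = 0.736 and 0.97), and MAD1L1 itself did not pass either.

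For the target of the checkpoint, most genes did not pass. Of 18 genes for CDC20, the anaphase-promoting complex and its ubiquitin-conjugating enzymes, 2 were lower with shCENPA1 and 3 with shCENPA2. Of all genes tested, 4.45% and 10.5% were lower, so that a few would be in a list of this length. CDC20, to which MAD2L1 and BUB1B bind, changed by -0.90 ± 0.12 and -1.48 ± 0.12 (limma, adjusted p = 0.00222 and 5.81e-05). UBE2C, the enzyme that starts ubiquitin chains, changed by -1.13 and -1.59, and with shCENPA2 UBE2S, which extends them, by -0.52 (adjusted p = 0.015). The 14 core subunits listed and UBE2D1 did not pass with either shRNA, among them ANAPC2 (0.04 and 0.11) and CDC26 (0.18 and 0.04).

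Genes that silence the checkpoint were lower in 0 of 16 cases with each shRNA. Of all genes tested, 4.45% (shCENPA1) and 10.5% (shCENPA2) were lower, so that few would be in a list of this length. PPP2R5B, a regulatory subunit of the phosphatase PP2A, was higher by 0.38 and 0.55 on the log2 scale (limma, adjusted p = 0.0453 and 0.00384). It was the only 1 of the 16 that was higher, where 2.69% and 8.05% of all genes tested were. MAD2L1BP (p31comet), the adaptor through which TRIP13 grips MAD2L1, was at 4.33 log2 RPKM with shNT and 4.53 with both shRNAs. Its difference of 0.21 and 0.20 did not pass (adjusted p = 0.208 and 0.145), whereas TRIP13 and MAD2L1 both fell over 2-fold.

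Securin (PTTG1) and separase (ESPL1), the anaphase targets held back by the checkpoint, were both lower, with log2 fold changes of -1.27 and -1.60 for PTTG1 and -1.17 and -1.36 for ESPL1 (limma, adjusted p = 0.000383 and 4.12e-05, and 0.00272 and 0.00053). The vesicle tether that shares ZW10 was lower in 0 of 6 cases, where 4.45% (shCENPA1) and 10.5% (shCENPA2) of all genes tested were lower, so that few would be lower in a list of this length. Its scaffold NBAS differed by 0.21 with shCENPA1 (limma, adjusted p = 0.288) and was higher by 0.37 with shCENPA2 (adjusted p = 0.0445), and RINT1, the subunit that binds ZW10, was at 0.01 and 0.16 (adjusted p = 0.954 and 0.328).

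Among paralogs, MAD2L2, which acts in DNA repair and shares the fold of MAD2L1, changed by -0.31 (limma, adjusted p = 0.127) and -0.38 (adjusted p = 0.0402). RAE1, a relative of BUB3 in mRNA export, was at 0.04 and 0.05 (adjusted p = 0.817 and 0.744). The lists are described by counts beside the share of all genes given above for each comparison. Their medians were -1.0 and -1.25 for the scaffold, -1.13 and -1.48 for the kinases and adaptors, -0.01 and -0.08 for the anaphase-promoting complex, 0.01 and 0.01 for silencing and 0.13 and 0.12 for the tether, with shCENPA1 and shCENPA2.

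**Figure D4:**
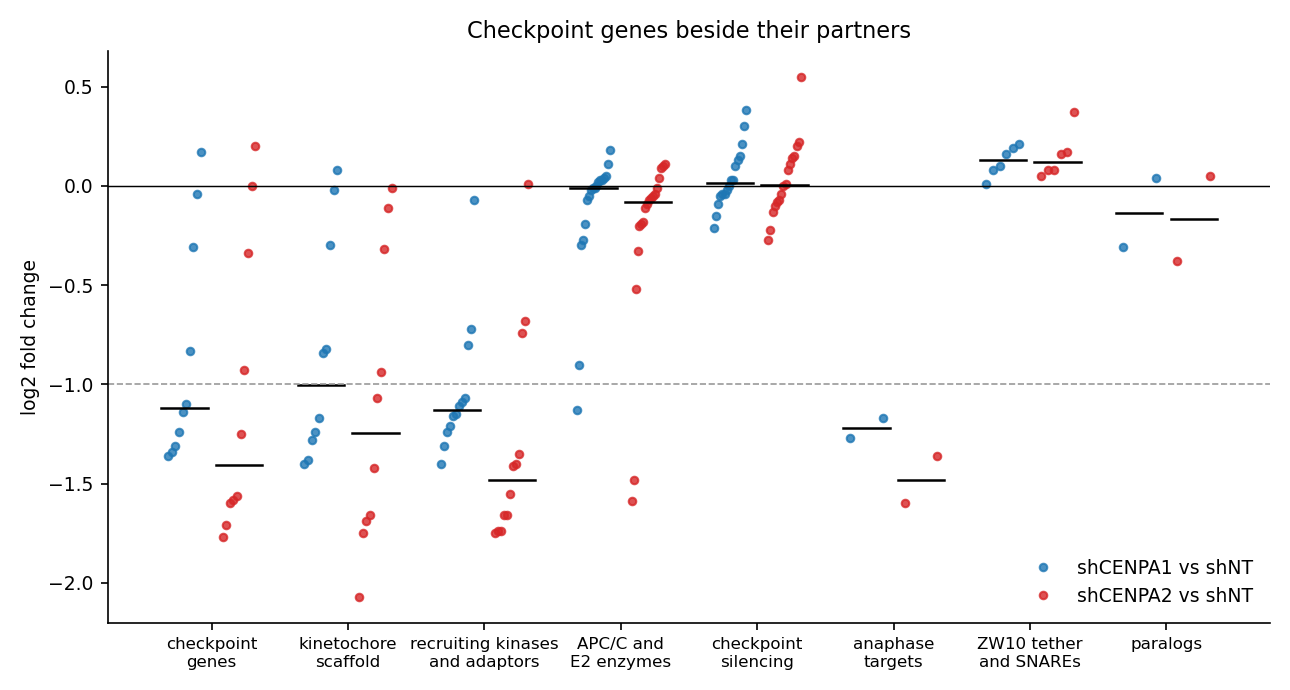
Log2 fold change against shNT (vertical axis) of the checkpoint genes and of 7 lists of partner genes, with 1 point per gene for shCENPA1 (blue) and shCENPA2 (red) and a black bar at the median of each list. The dashed line marks a 2-fold fall. The scaffold, the kinases and adaptors and the anaphase targets lie mostly near or under it, whereas most genes of the anaphase-promoting complex, of silencing and of the ZW10 tether lie around 0.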

How the data were processed

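Per the study's methods and the labels, the authors made stranded mRNA libraries and processed the reads with Trim Galore (trimming), STAR (alignment, hg38), HTSeq (counting) and edgeR. Versions are not given in the sources used here. The authors deposited log2 RPKM for 12 runs, with a prior count of 0.25 reads. Whole reads were recovered for 14828 of 14828 genes (tolerance 0.001 reads) and gave the depth, which here limits precision less than the number of libraries.

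The 2 lanes of each library were averaged, and limma 3.58.1 (R 4.3.3) was fitted to all genes whose mean log2 RPKM reached -3 (trend in the variance, all 3 groups in one fit, no covariate). The prior count draws fold changes of weakly expressed genes towards 0. The script was tested on simulated data, in which the changed genes were drawn at random from all genes tested. The shares recovered are therefore not specific to the checkpoint genes. Of simulated log2 changes of 0.5, 16% (shCENPA1) and 20% (shCENPA2) were recovered, and of changes of 1, 56% with each shRNA. Of changes of 1.5, 88% and 86% were recovered. A gene that did not pass may therefore still have changed. Named are all 10 members, CENPA, CDC20, MAD2L1BP, SPDL1, KNL1, NBAS, RINT1, MAD2L2 and some, not all, of the genes at the ends of the partner lists. UBE2S, UBE2D1, CDK1 and KRT18 were named after their values were seen, and 2 luminal markers are not reported here. Members and lists were chosen with earlier results of these data known. Gene positions were taken from GENCODE 44 (GRCh38, which is hg38). Promoters are from RefSeq (GRCh38.p14). Alternatives covered lanes, scaling, added constants, filters, the fit, a replicate block, voom on recovered reads and each library left out. Protein sequences were not used here.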

Additional observations from a re-analysis of the deposited data

Results flagged for a closer look

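Among the checkpoint genes, their partner lists and the other markers named, 4 genes differed between the CENPA shRNAs in a direct test. MAD2L1 was lower with shCENPA2 than with shCENPA1 by a log2 difference of -0.68 (limma, adjusted p = 0.036), at 1.85 and 1.57 log2 RPKM against 2.32 and 2.45. NUF2, of the NDC80 complex, differed by -0.69 (limma, adjusted p = 0.0274). CDK1, the mitotic kinase of the kinases and adaptors list, differed by -0.50 (adjusted p = 0.0364). LUM, of the fibroblast markers, was higher with shCENPA2 by 1.15 (adjusted p = 0.00357). The targeted gene, CENPA, differed by -0.98 in the same comparison (adjusted p = 0.0209). The part of the remaining CENPA or of the LUM difference in these results was not tested.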

How the results depend on the processing

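Over 19 alternatives for each of 10 genes, 188 of 190 values stayed on their side of the threshold for shCENPA1 against shNT, 185 of 190 for shCENPA2 against shNT and 182 of 190 between the shRNAs, and 0 that had passed changed direction. With single libraries left out, 6 to 7 checkpoint genes were lower with shCENPA1, 7 to 8 with shCENPA2 and 0 to 1 between the shRNAs. Between the shRNAs that count was 3 with 4 runs per shRNA as replicates (which added TRIP13 and TTK), and 0 with lane 8 alone, without the trend and with the replicate block. No other call of a checkpoint gene changed with the block. With 1 added to RPKM, 4 checkpoint genes rather than 6 were lower by over 2-fold with shCENPA1. The library numbers did not pair the samples (correlations of deviations -0.064, -0.095 and -0.145). With all libraries, 4 checkpoint genes were set apart between the shRNAs, lower with shCENPA2, where 20.2% of all genes were. Leaving out a library of either CENPA shRNA sets 1 library against 2, where groups lie apart more readily. The share of all genes was not worked out for that setting, so no count is given for it.

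The BUB3 call with shCENPA2 was lost without the trend (adjusted p = 0.0699), and with 4 runs as replicates BUB3 passed with shCENPA1 (3.66e-05) and MAD1L1 with shCENPA2 (0.0415). Runs of one library are not separate samples. Over all genes tested, 1044, 2712 and 208 passed an adjusted p under 0.05 in limma (shCENPA1 and shCENPA2 against shNT, then between the shRNAs). With 4 runs as replicates these were 5405, 7089 and 3319, and without the trend the last was 138. With 1 library left out they ranged from 397 to 1403, from 1360 to 2596 and from 28 to 372. Those passing with over 2-fold were 388, 897 and 107, with 1 added to RPKM 119, 317 and 17, and with the filter at 0 those with shCENPA2 and between the shRNAs were 529 and 53. Between the shRNAs it was 230 with 4 runs. With 1 library left out they were 252 to 427, 775 to 1074 and 22 to 224. The causes were not tested. With 2 libraries per shRNA, the SE of a checkpoint gene's log2 fold change was 0.09 to 0.18.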
